A study of Mus musculus with 53 samples.

Results

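Long non-coding RNAs that act in the nucleus, mark neural tissue or carry small nucleolar RNAs in their introns were read in the cortex of untreated mouse embryos at E16.5. The 10 genes were given as a list: Malat1, Neat1, Miat, Sox2ot, Dlx6os1, Pantr1, Rmst, Snhg11, Snhg1 and Gas5. Gene IDs of the deposited table were matched by symbol through the GENCODE M21 annotation, and 6 of the 10 were found among its 37991 gene IDs. Miat, Sox2ot, Rmst and Snhg1 could not be matched, so no value is given for these 4.

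The series holds 53 mouse RNA-seq samples in 19 groups, and its stated question is how activity and plasticity act on gene expression in the brain through histone turnover. Only 1 group is used here, cortical tissue of C57bl/6 embryos at E16.5 without stimulation, and no transgene, deletion or drug is named for it. Its 3 libraries were deposited as 1 mean per gene in RPKM, which is reads per kilobase of gene corrected for the size of the library, so there is no second group to compare with and no test. The other 50 samples, of 18 groups, are not analysed here. The labels do not say whether the 3 libraries came from separate embryos.

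Long non-coding RNAs are transcripts that are not known to be translated into a protein. Malat1 and Neat1 stay in the nucleus, where Malat1 gathers in nuclear speckles, which are stores of splicing factors, and the long form of Neat1 builds paraspeckles. Sox2ot, Dlx6os1 and Pantr1 are transcribed beside or across genes of transcription factors of the developing brain. Snhg1, Snhg11 and Gas5 are host genes, whose introns are cut into small nucleolar RNAs (snoRNAs) that guide chemical marks on ribosomal RNA, while the spliced exons are left as a long RNA.

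The 6 matched genes spread over a wide range of levels. Malat1 (ENSMUSG00000092341) was highest at 57.9 RPKM, then Gas5 (ENSMUSG00000053332) at 34.2 RPKM and Snhg11 (ENSMUSG00000044349) at 10.7 RPKM. Pantr1 (ENSMUSG00000060424) stood at 2.62 RPKM, Dlx6os1 (ENSMUSG00000090063) at 0.734 RPKM and Neat1 (ENSMUSG00000092274) at 0.146 RPKM. At 1 RPKM or more were 4 of the 6 matched genes, against 18.8% of all listed gene IDs, 3.96% of the 3183 genes of long non-coding biotype and 31.6% of protein-coding genes. The genes were listed for their known roles, so this count describes them and says nothing of long non-coding RNAs at large.

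Read against the whole table, the level of Malat1 was above that of 99.3% of the genes listed above 0, Gas5 above 98.9%, Snhg11 above 96.2%, Pantr1 above 84.2%, Dlx6os1 above 66.5% and Neat1 above 46.8%. Genes of long non-coding biotype were low as a class, with a median of 0.0137 RPKM over the 2215 above 0, while the median was 0.450 RPKM for protein-coding genes and 0.196 RPKM for all. Even Neat1, the lowest of the 6, was therefore above 79.6% of the long non-coding RNA genes above 0. Among those genes by rank, Malat1 was 2nd, Gas5 3rd, Pantr1 56th, Dlx6os1 163rd and Neat1 451st. Snhg11 carries a protein-coding biotype in this annotation and so has no rank here, although RefSeq lists it as a long non-coding RNA.

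**Figure D1:**
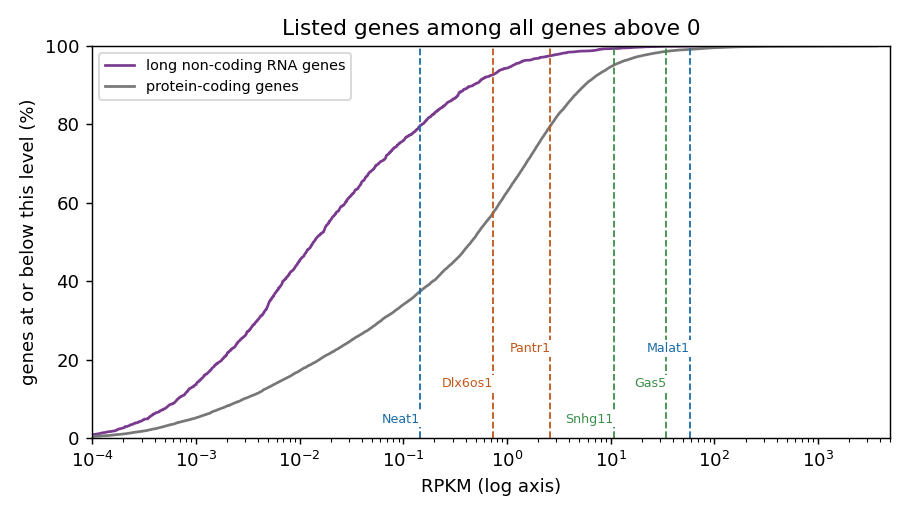
Cumulative share of genes (vertical axis, %) at or below each RPKM value (horizontal log axis) for long non-coding RNA genes and protein-coding genes above 0, with dashed lines at the 6 matched genes (blue nuclear, orange neural, green snoRNA hosts). All 6 lines lie to the right of the long non-coding median of 0.0137 RPKM, from Neat1 at 0.146 to Malat1 at 57.9 RPKM.

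The 10 highest genes of long non-coding biotype place the members in context. Xist, which coats the inactive X chromosome of female cells, led at 110.8 RPKM. Malat1 and Gas5 followed, then Meg3, an imprinted gene expressed from the maternal copy, at 31.1 RPKM and 3110039I08Rik at 25.4 RPKM. Below these came 1700020I14Rik at 21.3 RPKM, C130071C03Rik at 20.3 RPKM, 1110038B12Rik at 19.4 RPKM, Tug1 at 17.0 RPKM and 2410006H16Rik at 16.0 RPKM. No neural member of the list was among these 10. C130071C03Rik, which was on the list of other neural long non-coding RNAs, was among them, but its annotated span differs between GENCODE and RefSeq, with a RefSeq span 0.122 of the GENCODE one, so its level per length is uncertain.

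The deposited values divide the reads by the whole gene, introns included, which matters for genes with long introns. When the reads were instead divided by the length of the exons, the order changed. Malat1 and Neat1 have 1 long exon and kept 57.9 and 0.146 per kilobase of exon. Gas5 stood at 37.5 and Snhg11 at 13.1 per kilobase of exon. Pantr1 rose from 2.62 RPKM to 61.2 per kilobase of exon, beside Malat1, because 4458 of its annotated 104060 bases are exonic. Dlx6os1 moved from 0.734 RPKM to 7.30 per kilobase of exon, with 5173 exonic bases of 51403. The standing among all genes above 0 changed too. Per kilobase of exon, Pantr1 was above 98.1% of them, Malat1 above 98.0% and Gas5 above 96.2%. Snhg11 was above 85.6%, Dlx6os1 above 75.4% and Neat1 above 32.0%. The exon scale places all reads on exons, which is not known, and the span of Pantr1 in RefSeq is 0.448 of that in GENCODE, so the position of Pantr1 among the members rests on which gene model is used.

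**Figure D2:**
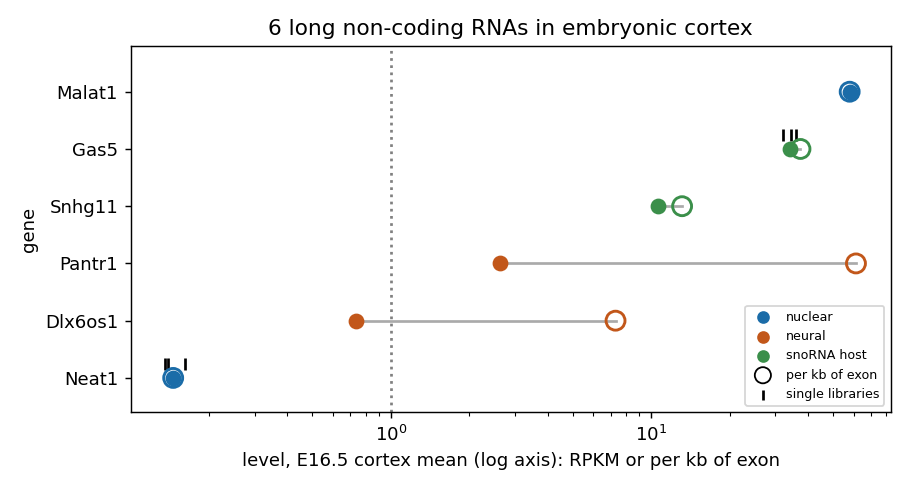
Level of each matched gene on a log axis, as deposited in RPKM (filled circles) and per kilobase of exon (open circles), with small black bars for the single libraries where these could be solved and a dotted line at 1 RPKM. The circles coincide for Malat1 and Neat1 and lie far apart for Pantr1, at 2.62 and 61.2, and for Dlx6os1, at 0.734 and 7.30.

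Although only a mean was deposited, its 15 significant digits hold more. Genes whose mean is worth exactly 1 read in 1 library gave the same 3 library totals again and again: 51309675 reads for 329 genes, 64809251 for 415 and 71590977 for 485. The next most common implied total was shared by 164 genes, and it is the value of 1 read in each of the larger libraries. With these totals the reads of each library were solved as whole numbers for genes with 1 exact solution, on the condition that fewer than 0.01 solutions were expected by chance. Which labelled replicate each library is cannot be told, so they are named by their size in megareads (M) as the 51.3, 64.8 and 71.6 M libraries. Of 7217 genes with 20 to 2000 estimated reads, 61.6% were solved, against 0.637% when 1 base was added to the gene length. Gas5 and Neat1 were solved among the members. Malat1, Snhg11, Pantr1 and Dlx6os1 were not, and their values remain the authors' means with no spread. They rest on about 75863, 21031, 51202 and 7087 reads, estimated from the GENCODE span, which may not be the authors' length. Zfas1, with 6975 estimated reads, and Eomes, with 22837, were solved at depths near those of Dlx6os1 and Snhg11. Snhg17, solved with another annotated length, had 6744 estimated and 5359 solved reads. Values per kilobase of exon of unsolved genes rest on the same span.

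Among the nuclear RNAs, Malat1 and Neat1 are neighbours in the genome and share an unusual 3′ end. Malat1 and the long form of Neat1 do not end in the usual poly(A) tail. Their 3′ ends instead fold U-rich stretches around an A-rich stretch, a triple helix that protects the RNA. The stretches are shown because they stand in place of a tail. Capitals mark TTTTTCTTTT, TTTTGCTTTT and a run of at least 5 A followed by GCAAAA, searched on the transcript strand in GENCODE M21 sequences with the letters taken from Malat1.
Malat1: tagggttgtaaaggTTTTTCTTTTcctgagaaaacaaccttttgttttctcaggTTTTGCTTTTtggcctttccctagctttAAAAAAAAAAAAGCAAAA
Neat1 long form: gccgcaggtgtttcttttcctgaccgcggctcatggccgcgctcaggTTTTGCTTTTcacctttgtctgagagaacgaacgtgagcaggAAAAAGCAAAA
The Malat1 stretch covers bases 6592 to 6691 of a transcript of 6983 bases, and the Neat1 stretch the last 100 of 20771 bases. Malat1 holds all 3 kinds of letters and Neat1 holds 2 of them, with a shorter A run. Neat1 also has the shorter tttctttt before cctg, as TTTTTCTTTT stands before cctg in Malat1. It is unmarked because the search letters came from Malat1, so Neat1 is not shown to lack a U-rich stretch. TTTTGCTTTT occurs in the last 100 bases of 0.084% of 139316 transcripts and AAAAAGCAAAA in 0.0459%. The annotated Malat1 transcript runs on for 292 bases after its stretch, so this window fits Neat1 only. Anywhere in a transcript, the shares were 1.08% and 0.436% of 141767 transcripts, and 3.53% for TTTTTCTTTT.

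Malat1 stood 396-fold above Neat1, at 57.9 against 0.146 RPKM, and the fold was 396 per kilobase of exon too, since both genes are unspliced. Neat1 was solved as 145, 219 and 207 reads, which are 0.136, 0.163 and 0.139 RPKM in the 51.3, 64.8 and 71.6 M libraries, with an SD of 0.0146. The Poisson 95% intervals, which cover counting error only, ran from 0.115 to 0.160, from 0.142 to 0.186 and from 0.121 to 0.160 RPKM. They overlapped in all 3, so the libraries could not be told apart at this depth. The labels do not say whether the libraries were selected for poly(A) RNA, and the part of such a step in the Malat1 and Neat1 levels was not tested.

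Neat1 makes a short form that does end in a poly(A) tail, and its end is shown for contrast, with the polyadenylation signal AATAAA in capitals.
Neat1 short form: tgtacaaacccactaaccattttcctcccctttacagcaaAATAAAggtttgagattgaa
AATAAA is in the last 60 bases of 27.2% of 141515 transcripts. If all Neat1 reads belonged to this form of 3004 bases, the level would be 1.01 ± 0.101 per kilobase (SD over the 3 solved libraries), 6.91-fold the deposited value. The mean does not say where along the gene the reads lay. The neighbour Frmd8, which encodes a FERM-domain protein, stood at 0.539 RPKM and is named although it is below 1 RPKM.

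The proteins that share these nuclear bodies were measured from fixed lists. All 9 of 9 paraspeckle proteins were at 1 RPKM or more, with a median of 24.6 RPKM beside 0.196 for all genes above 0. Hnrnpk was highest at 63.3 RPKM, followed by Sfpq at 35.6 RPKM, and Pspc1 was lowest at 1.33 RPKM. Per kilobase of exon Hnrnph3 was lowest instead, at 5.85. All 9 are RNA-binding proteins, and Sfpq is needed for paraspeckles to form. Their scaffold RNA, Neat1, at 0.146 RPKM, was thus lower than each of the 9. All 9 of 9 nuclear speckle proteins were likewise at 1 RPKM or more, with a median of 34.4 RPKM, and the splicing factors Srsf5 at 62.1, Srsf1 at 59.9 and Srsf6 at 54.4 RPKM led them. Srrm1, a splicing coactivator, was lowest at 5.45 RPKM. Per kilobase of exon Srrm2 was highest at 107.1 and Srsf2 lowest at 11.0. Malat1, at 57.9 RPKM, fell within the range of the 9.

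Miat is another nuclear RNA, known in neurons and retina, and it is marked by a short repeat that resembles the branch point sequence of introns and is bound by the splicing factors SF1 and QKI. The repeat ACTAAC, searched on the transcript strand, was counted 11 times in the longest annotated Miat transcript of 9163 bases, or 1.20 per kilobase, against 0.109 per kilobase over all 141767 transcripts, of which 14.8% hold it at all. Among the other members the longest transcripts held 4 in Neat1, 1 each in Snhg11, Pantr1 and Gas5, and 0 in Malat1, Sox2ot, Dlx6os1, Rmst and Snhg1. Miat and Rmst have no value here, but a list of RNA-binding proteins linked to them does. All 6 of 6 messages were at 1 RPKM or more, with a median of 11.0 RPKM. Hnrnpa2b1, a packaging protein of nascent RNA that binds Rmst, was highest at 135.4 RPKM. Celf3, a neuronal splicing regulator, stood at 19.3 and Sf1, which recognises the branch point, at 14.6 RPKM. The splicing repressor Ptbp1 was at 7.43 RPKM, its neuronal relative Ptbp2 at 4.22 and Qk, which encodes QKI, at 1.72 RPKM. Per kilobase of exon Ptbp1 stood at 16.2 and Ptbp2 at 30.2, so no order is given for these genes. Ptbp1 was solved as 3932, 4778 and 5746 reads, with the highest library 1.09-fold the lowest by RPM.

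Among the neural RNAs, Dlx6os1, also known as Evf2, is transcribed across Dlx6 and lies beside Dlx5, homeobox genes that direct the formation of GABAergic interneurons. It stood at 0.734 RPKM, with Dlx6 at 0.291 and Dlx5 at 1.54 RPKM. Dlx6os1 was 2.53-fold above Dlx6 as deposited and 11.4-fold above it per kilobase of exon. Against Dlx5 the scales disagreed: Dlx6os1 was 0.477 of Dlx5 as deposited and 2.50-fold above it per kilobase of exon, so no order is given. The annotated span of Dlx6 lies inside that of Dlx6os1 on the opposite strand. Without a statement on strand, reads of Dlx6 and Dlx6os1 cannot be told apart, and the value of each is uncertain.

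Dlx6os1 itself was not solved by library, but its neighbours were. Dlx5 gave 296, 425 and 534 reads, which are 5.77, 6.56 and 7.46 reads per M reads (RPM) in the 51.3, 64.8 and 71.6 M libraries. Dlx6 gave 59, 111 and 122 reads, or 1.15, 1.71 and 1.70 RPM. Both were lowest in the smallest library, and Dlx5 stood 6.14, 4.68 and 5.35-fold above Dlx6 by RPKM in the 3 libraries, so their order held in each.

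Other genes of GABAergic neurons were also lowest in the smallest library, a pattern singled out after the values were seen, while the highest library differed between genes. Dlx1, a related homeobox gene, stood at 89.6, 112 and 112 RPM, and Dlx1as, an antisense RNA at the Dlx1 gene, at 8.77, 10.8 and 10.3 RPM. Gad1 and Gad2, which encode the enzymes that make the transmitter GABA, stood at 37.6, 53.1 and 46.4 RPM and at 30.2, 43.3 and 40.6 RPM. The smallest library was thus lowest for all 6 genes, Dlx1, Dlx1as, Dlx5, Dlx6, Gad1 and Gad2, by more than 10% below each of the other libraries. Over 6176 solved genes with 200 to 20000 reads, 53.9% were lowest in that library and 11.5%, or 709 genes, were lowest by more than 10%. These 709 genes include some that are not GABAergic markers. Emx2os stood at 2.85, 3.72 and 3.91 RPM and the microglia marker C1qb at 3.02, 3.70 and 3.83 RPM. C1qa, also a microglia marker, is not among them, at 2.46, 2.53 and 3.17 RPM. It was lowest in the smallest library too, but not by more than 10% below each of the other libraries. Poisson 95% intervals of the smallest library lay apart from both others for Dlx1, Gad1 and Gad2 and overlapped at least one of them for Dlx5, Dlx6 and Dlx1as. Dlx2, Sst and Lhx6, which interneurons also express, were not solved, so the pattern is not known for them. In bulk tissue, fewer interneurons, less RNA per interneuron and a difference between the libraries that is not particular to interneurons cannot be told apart.

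**Figure D3:**
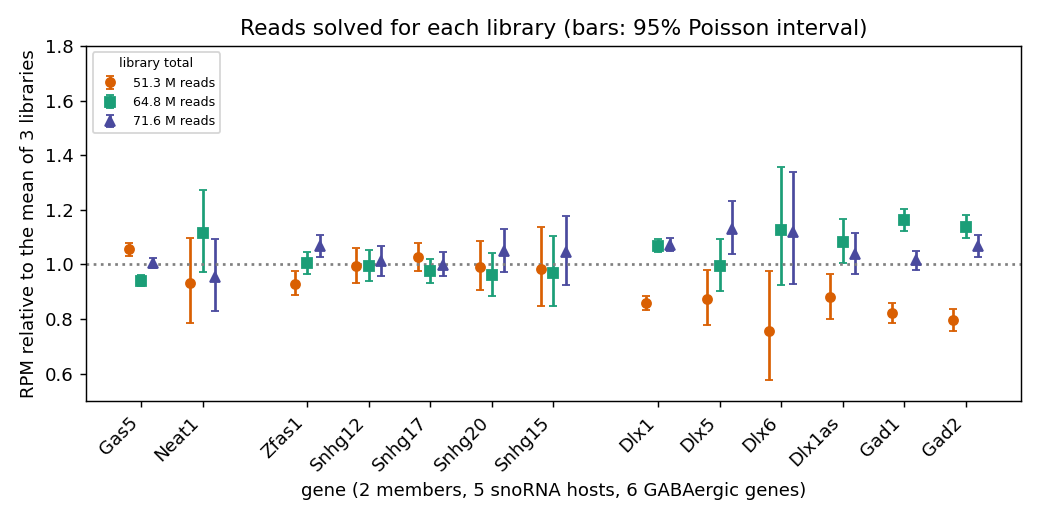
RPM of single genes in each library, relative to the mean of the 3 libraries (vertical axis), for 2 members, 5 other snoRNA host genes and 6 genes of GABAergic neurons, with 95% Poisson intervals as bars. The 51.3 M library (circles) is lowest for all 6 GABAergic genes, as in Gad2 at 30.2 against 43.3 and 40.6 RPM, while it is highest for Gas5.

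The markers listed for neurons were present, with Neurod6 at 193.7, Tubb3 at 156.4, Neurod2 at 108.7 and Tbr1 at 24.4 RPKM. The radial glia markers ran from Pax6 at 1.57 and Hes5 at 3.52 through Sox2 at 20.2 and Vim at 31.0 to Fabp7 at 102.1 RPKM. The markers of intermediate progenitors, Eomes and Neurog2, stood at 15.4 and 29.7 RPKM. The interneuron list stood at 17.8 RPKM for Dlx1, 6.41 for Dlx2, 0.934 for Gad1, 0.530 for Gad2 and 20.1 for the neuropeptide gene Sst. Of the ganglionic eminence and striatum list, Gsx2 was listed at 0, Ebf1 was at 0.00779 and Isl1 at 0.0152 RPKM, Nkx2-1 was at 0.192 and Lhx6, which migrating interneurons also express, at 2.75 RPKM. Isl1 gave 1, 7 and 28 reads in the 51.3, 64.8 and 71.6 M libraries and Nkx2-1 gave 43, 85 and 51. Ebf1 gave 128, 241 and 209 reads, and its low RPKM comes from dividing them by an annotated span of 390774 bases. Per kilobase of exon, Ebf1 stood at 0.312, Nkx2-1 at 0.334 and Isl1 at 0.0437. By RPM, Isl1 and Ebf1 were lowest in the 51.3 M library and Nkx2-1 in the 71.6 M library. The part of neighbouring tissue in the Dlx6os1 level was not tested. Red blood cell RNA was present, with Hba-a1 at 53.6 and Hbb-bs at 52.6 RPKM, and the choroid plexus gene Ttr was at 0.0670 RPKM.

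Pantr1 is transcribed away from Pou3f3, a POU-domain factor of upper-layer cortical neurons, from a start close to it. Pou3f3 stood at 86.0 RPKM and Pantr1 at 2.62 RPKM, a ratio of 0.0305 as deposited. Per kilobase of exon the values were 86.0 and 61.2, a ratio of 0.712, which is nearer to 1 than the 1.5-fold set for calling an order. Pou3f3 has 1 exon in GENCODE, so its level does not move between these scales, and the change in ratio is that of Pantr1 alone. The RefSeq span of Pou3f3 is 0.6 of the GENCODE one, so its own level per length is uncertain too. Sox2ot has no value here. Sox2, the stem cell factor whose gene lies in an intron of Sox2ot on the same strand, stood at 20.2 RPKM.

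**Figure D4:**
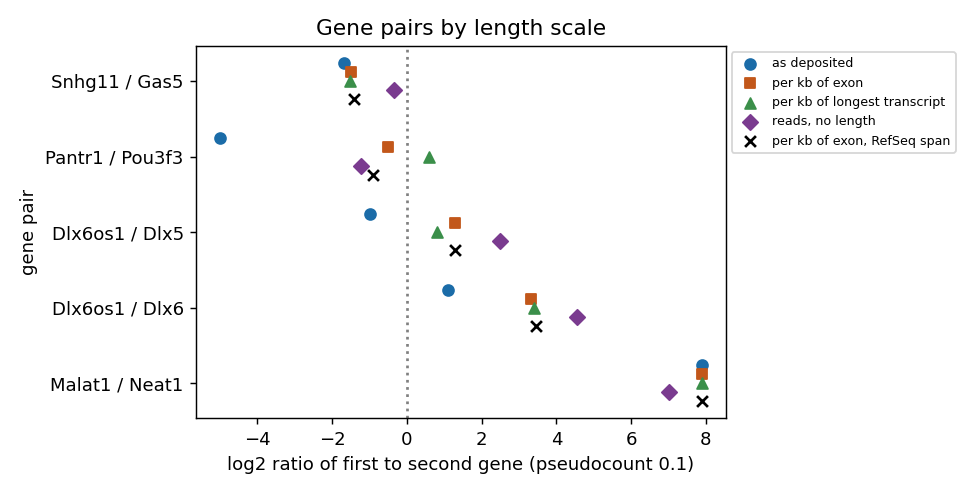
Log2 ratio of the first to the second gene of each pair (horizontal axis, pseudocount 0.1) for 5 pairs in which both genes were matched, under 5 ways of treating gene length. Malat1 to Neat1 stays at 7.01 or more in all 5, while Dlx6os1 to Dlx5 and Pantr1 to Pou3f3 change sign.

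Most other neural long non-coding RNAs were lower than Dlx6os1 and Pantr1, with C130071C03Rik as the exception. Of 16 listed genes 8 were matched, 7 of them were above 0, and 1 was at 1 RPKM or more, with a median of 0.0728 RPKM over those above 0. C130071C03Rik, the host of miR-9-2, was highest at 20.3 RPKM, followed by Dlx1as at 0.465 and Emx2os, antisense to the cortical patterning gene Emx2, at 0.104 RPKM. Per kilobase of exon Lhx1os, at 1.06, stood above Emx2os, at 0.695. Nkx2-2os was lowest above 0, with 1 read in 1 library. Other nuclear or widely expressed long non-coding RNAs had a median of 0.199 RPKM over 10 matched of 16, and 4 were at 1 RPKM or more. Xist at 110.8, Meg3 at 31.1 and Tug1 at 17.0 RPKM led this list, and Lncpint was lowest at 0.000123 RPKM. Dlx6os1 and Pantr1 stood above both medians, as deposited and per kilobase of exon. Neat1 stood between the medians as deposited. Per kilobase of exon Neat1, at 0.146, was below both, which were 0.695 for the neural and 1.43 for the nuclear list.

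The snoRNA host genes listed here are spliced like messenger RNAs, but their exons are not known to code for a protein. Of these, Snhg11 carries a protein-coding biotype in GENCODE M21. The spliced RNA of Gas5 is broken down by nonsense-mediated decay when it is translated. Gas5 also begins with a 5′ terminal oligopyrimidine (TOP) tract, the feature by which messages of ribosomal proteins are translated according to growth. Both annotated starts of Gas5 are shown with that of Rps6, a ribosomal protein gene, with 30 bases before the start, from RefSeq promoters on GRCm38.p6. Capitals mark the first 5 transcribed bases.
Gas5, first start, chr1:161034571-161034620, plus strand: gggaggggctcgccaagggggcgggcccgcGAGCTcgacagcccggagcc
Gas5, second start, chr1:161035136-161035185, plus strand: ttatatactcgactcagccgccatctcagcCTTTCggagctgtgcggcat
Rps6, chr4:86857348-86857397, minus strand: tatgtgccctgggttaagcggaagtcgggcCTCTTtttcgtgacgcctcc
A start of C followed by 4 bases that are each C or T was counted as a TOP start. The second start of Gas5 and that of Rps6 met it and the first start of Gas5 did not, beside 2.51% of 32851 promoters. Of 8 annotated promoters of 6 members, 2 met it, the second of Gas5 and that of Miat. The single promoters of Snhg1, Snhg11 and Malat1 and both of Dlx6os1 did not. TATAAA on the gene's strand was found in 1 of the 8, a promoter of Dlx6os1, against 8.32% of all promoters of 300 bases, and in 13.6% of them on either strand. On the other strand it was found in that promoter and in the one of Snhg1. Neat1, Sox2ot, Pantr1 and Rmst had no entry in the promoter table.

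Gas5 stood at 34.2 RPKM and was solved as 7622, 8586 and 10129 reads. These are 36.1, 32.2 and 34.4 RPKM in the 51.3, 64.8 and 71.6 M libraries, with an SD of 1.96 RPKM. The Poisson 95% intervals, 35.3 to 36.9, 31.5 to 32.9 and 33.7 to 35.0 RPKM, did not overlap, so the libraries differed by more than counting error, and the 51.3 M library was highest. The highest was 1.12-fold the lowest, while the median over 4054 solved genes with 2000 to 20000 reads was 1.08-fold and the 95th percentile 1.24-fold. Over 2124 solved genes with 200 to 2000 reads, where counting error is larger, they were 1.18-fold and 1.62-fold. Gas5 stood 265, 198 and 247-fold above Neat1 in the 3 libraries, so that order held in each. Zbtb37, which encodes a zinc finger protein, overlaps Gas5 on the opposite strand and stood at 0.961 RPKM, and it is named for that overlap. As for Dlx6os1 and Dlx6, reads of the shared stretch cannot be told apart without a statement on strand.

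Snhg11, a host gene expressed mainly in neurons, stood at 10.7 RPKM, a ratio to Gas5 of 0.312 as deposited and 0.351 per kilobase of exon. Snhg11 was lower than Gas5 on both scales by more than 1.5-fold. No value is given for Snhg1, whose neighbours Wdr74, a ribosome assembly factor, and Slc3a2, an amino acid transporter subunit, stood at 5.36 and 4.13 RPKM. Slc3a2 was solved as 3455, 4399 and 4940 reads, with the highest library 1.02-fold the lowest by RPM.

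Of 18 other snoRNA host genes 8 were matched, 7 were above 0 and 6 were at 1 RPKM or more, with a median of 4.56 RPKM. Zfas1 was highest at 12.7 RPKM, then Snhg12 at 7.64 and Epb41l4aos at 5.41 RPKM. Snhg9 was lowest above 0 at 0.170 RPKM and Snhg3 was listed at 0. Per kilobase of exon Epb41l4aos, at 13.8, stood above Zfas1, at 12.7. Gas5 and Snhg11 both stood above this median, and Gas5 stood above each of the 8. Zfas1 was solved as 1773, 2418 and 2836 reads, and Gas5 was 3.06, 2.53 and 2.54-fold above it in the 3 libraries. Snhg12 was even across the libraries, at 914, 1154 and 1297 reads with the highest 1.02-fold the lowest by RPM. Snhg9 gave 0, 8 and 7 reads, and a count of 0 allows up to 3.

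The snoRNAs inside the host genes were nearly all listed at 0. Gas5 hosts 9 annotated snoRNA genes and all 9 were at 0, as were all 8 of Snhg1 and 1 of 2 of Snhg11. This is the common state of the class, since 70.6% of 1192 snoRNA genes in the table were at 0. The sequences of 3 snoRNAs of Gas5 are printed to show how short they are beside their host. They belong to the box C/D family, which guides ribose methylation, and capitals mark the C box TGATGA, where these exact letters occur, and the last D box CTGA.
Snord47: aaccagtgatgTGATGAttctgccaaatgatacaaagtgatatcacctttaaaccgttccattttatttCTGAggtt
Snord78: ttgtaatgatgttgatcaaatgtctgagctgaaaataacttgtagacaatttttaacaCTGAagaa
Snord80: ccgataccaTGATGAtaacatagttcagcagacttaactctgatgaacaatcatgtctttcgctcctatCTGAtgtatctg
These are 77, 66 and 81 bases long. Of 1507 annotated snoRNA transcripts, 26.1% hold TGATGA and 79.5% hold CTGA, and 25.2% hold both. A value of 0 for RNAs of this length does not show that they were missing from the tissue, and how far library preparation holds fragments this short was not tested.

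Snhg11 hosts snoRNAs of the other family, box H/ACA, which guide the change of uridine to pseudouridine and carry ACA close to their 3′ end. The pair is printed with the last ACA in capitals.
Gm25129: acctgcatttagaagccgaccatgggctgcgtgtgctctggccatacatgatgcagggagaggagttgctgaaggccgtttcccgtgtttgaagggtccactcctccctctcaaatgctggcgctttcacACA
Gm25187: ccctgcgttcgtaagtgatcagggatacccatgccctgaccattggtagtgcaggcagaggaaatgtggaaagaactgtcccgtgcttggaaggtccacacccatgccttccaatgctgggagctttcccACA
Both are 133 bases long. Gm25129 stood at 0.701 RPKM, solved as 1, 14 and 3 reads, so that most of its reads came from the 64.8 M library, and Gm25187 was listed at 0. Reads of the unspliced host over Gm25129 cannot be told apart from the snoRNA itself.

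Rmst hosts 2 microRNAs in its span, of which Mir1251 was listed at 0 and Mir135a-2 had exactly 1 read, in the 64.8 M library. The products of Mir135a-2 from RefSeq are shown with their seeds, bases 2 to 8, in capitals, since the seed is what a microRNA pairs with its targets.
mmu-miR-135a-5p: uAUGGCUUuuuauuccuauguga
mmu-miR-135a-2-3p: uGUAGGGAuggaagccaugaa
Among 1110 microRNA genes 69.0% were listed at 0. A single read at a locus inside Rmst gives no level for the microRNA, nor for Rmst.

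The machinery that these host RNAs depend on was read from 3 further lists. All 8 of 8 snoRNP proteins, which package snoRNAs, were at 1 RPKM or more, with a median of 5.64 RPKM. Nop56, a core protein of box C/D particles, was highest at 27.1 RPKM, followed by Nop10, of box H/ACA particles, at 19.2 and Snu13 at 11.5 RPKM, and the pseudouridine synthase Dkc1 was lowest at 2.37 RPKM. Nop56 was even across the libraries at 6796, 8405 and 9630 reads, with the highest 1.04-fold the lowest by RPM. Of 8 nonsense-mediated decay factors 6 were at 1 RPKM or more, with a median of 2.14 RPKM. Smg5 at 3.62, the helicase Upf1 at 3.56 and Upf3b at 2.64 RPKM led them, and the endonuclease Smg6 was lowest at 0.266 RPKM.

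All 7 of 7 messages listed as known TOP messages were at 1 RPKM or more, and their median of 76.2 RPKM was above Gas5. The elongation factors Eef1a1 at 432.4 and Eef2 at 327.6 and the growth-related Tpt1 at 284.4 RPKM led them, and Pabpc1, which encodes the poly(A)-binding protein, was lowest at 19.1 RPKM. Of the 7, 4 had an entry in the promoter table, and the annotated start of 1, Rps6, met the criterion used above, so the list rests on what is known of these messages and not on these starts. As deposited, Gas5 fell within the range of this list, above Pabpc1 and above Npm1, which was at 33.1 RPKM. Per kilobase of exon Gas5, at 37.5, stood below Pabpc1 at 40.8 and Npm1 at 135.5, so no order is given. Rps6, at 72.0 RPKM, was solved as 9508, 12578 and 15423 reads, lowest by RPM in the 51.3 M library, where Gas5 was highest. These genes have pseudogenes and near copies in the genome, and reads shared with such copies leave their values uncertain.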

How the data were processed

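The authors deposited 1 mean of RPKM per gene for the E16.5 cortex, of 3 libraries by the labels. Per the labels' protocols, Trizol RNA was cleaned on RNeasy Micro columns and made into TruSeq libraries run on a HiSeq 2000. Per the submitters' processing notes the tools were DESeq 1.16.0, HTSeq 0.6.0, Cuffdiff 2.0.2, TopHat2 2.0.9 and Bowtie2 2.1.0, with no role given, and the build was mm9 (NCBIM37). Strand, poly(A) selection, read length and the handling of multi-mapped reads are not given in the sources used here. Symbols and lengths came from GENCODE M21, on a later build, and 32919 gene IDs had both.

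Reads were estimated as RPKM times gene span (end minus start) times the summed depth of 188.0 M reads. Single libraries were solved from the mean in whole reads, a step chosen after seeing the data and tested on simulated data. It searched reads within 35% of an even share by library size, or within 90% for genes under 3000 reads. Where counts were low the window was wider, set by a multiple of the square root of the even share plus a few reads. Solutions of Isl1 and Gm25129 used this wider window. For Snhg12, Snhg17, Snhg20, Nkx2-1 and Isl1 the length came from another annotated start or end. The simulated data did not cover this choice of length. Poisson intervals cover counting error only, and the spread between libraries may be technical. Ratios used log2(RPKM + 0.1), and an order needed 1.5-fold on both length scales. With 1 group there was no test and no p-value. The members and lists were chosen with earlier results of these data known. Named were all members, both genes of each pair, every gene of lists of 6 or fewer measured genes, otherwise the 3 highest and the lowest above 0, the 10 highest long non-coding RNA genes and neighbours within 10 kb at 1 RPKM or more. One gene that this rule names is not reported here. Of the 11 gene pairs, 6 hold an unmatched gene and have no value. Python 3.11.15, numpy 2.4.6, pandas 2.3.3 and scipy 1.17.1 were used.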

Additional observations from a re-analysis of the deposited data

How the results depend on the processing

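No paired analysis was possible because only 1 mean column of 1 group was used. Single libraries could be left out only where their reads were solved, and, added after seeing the data, this gave 33.3 to 35.2 RPKM for Gas5 and 0.138 to 0.151 RPKM for Neat1. Ratios are log2 with a pseudocount of 0.1 unless said otherwise, and the cause of each shift beyond the change of length or pseudocount itself was not tested. Per kilobase of exon, Dlx6os1 to Dlx5 turned from -0.98 to 1.30, Dlx6os1 to Dlx6 went from 1.09 to 3.32, Pantr1 to Pou3f3 from -4.98 to -0.49 and Snhg11 to Gas5 from -1.67 to -1.50. Per kilobase of the longest transcript, Dlx6os1 to Dlx5 turned to 0.81, Pantr1 to Pou3f3 turned to 0.61, Dlx6os1 to Dlx6 was 3.40 and Snhg11 to Gas5 -1.52. From reads with no length, Dlx6os1 to Dlx5 turned to 2.50, Malat1 to Neat1 was 7.01 in place of 7.88, Dlx6os1 to Dlx6 4.54, Pantr1 to Pou3f3 -1.22 and Snhg11 to Gas5 -0.33. With a pseudocount of 1, Malat1 to Neat1 was 5.68, Dlx6os1 to Dlx6 0.43, Dlx6os1 to Dlx5 -0.55, Pantr1 to Pou3f3 -4.59 and Snhg11 to Gas5 -1.59. With 0.01, Malat1 to Neat1 was 8.54, Dlx6os1 to Dlx6 1.31 and Pantr1 to Pou3f3 -5.03. With spans from RefSeq, added after seeing the data, values per kilobase of exon were 1.29 for Dlx6os1 to Dlx5, again turned, 3.46 for Dlx6os1 to Dlx6, -0.91 for Pantr1 to Pou3f3 and -1.41 for Snhg11 to Gas5. Medians per kilobase of exon were 46.2 for paraspeckle proteins, 61.1 for nuclear speckle proteins, 16.2 for snoRNP proteins, 11.9 for decay factors, 32.0 for partners of Miat and Rmst, 338.0 for TOP messages, 5.09 for other snoRNA hosts, 1.43 for other nuclear RNAs and 0.695 for other neural RNAs. Without the highest gene they were 14.4 for paraspeckle proteins, 32.2 for nuclear speckle proteins, 1.84 for decay factors, 7.43 for partners of Miat and Rmst, 74.1 for TOP messages, 0.120 for other nuclear RNAs and 0.0428 for other neural RNAs, the last also with genes at 0 included. The count of members at 1 RPKM or more was 4, and it was 5 at 0.5 RPKM, 4 at 2 RPKM and 5 per kilobase of exon. Of the levels and percentiles of single members under their alternatives, 39 moved beyond the tolerance and 16 did not. The tolerance was 1 SD over solved libraries for the levels of Gas5 and Neat1, counting error alone for the levels of the other 4, which have no spread between libraries, and 1 percentile point for percentiles. Depth limits Neat1 most, with 571 solved reads.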
